A study of Mus musculus with 6 samples.

Results

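The EMT transcription factors and classical cadherins described here are 10 genes, found by symbol among the 43043 genes listed for each sample of D4M-3A cells. They are the factor genes Snai1, Snai2, Twist1, Twist2, Zeb1, Zeb2 and Prrx1 and the cadherin genes Cdh1, Cdh2 and Cdh11. D4M-3A is a mouse melanoma cell line derived from a tumor with activated Braf, and all samples share this background. RNA was sequenced from 3 control (Ctrl) samples that carried an empty CRISPR-Cas9 construct, and from 3 Nfkbiz knockout (Nfkbiz KO) samples, transduced with a construct against Nfkbiz, the gene of the nuclear NF-κB co-factor IκBζ. All cells were selected with puromycin, and the sources used here do not say whether the knockout line is 1 clone. The study states that its experiments used independent biological replicates, and the labels give only replicate numbers. How the loss of IκBζ changed these 10 genes is the comparison made below.

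Epithelial-mesenchymal transition (EMT) is the program by which cells loosen their contacts and gain motility. It is driven by zinc-finger factors of the Snail and ZEB families, basic helix-loop-helix factors of the Twist family and the homeobox factor Prrx1. Several of these factors repress Cdh1, the gene of the epithelial E-cadherin, by binding E-boxes in its promoter, while N-cadherin (Cdh2) and cadherin-11 (Cdh11) are typical of mesenchymal cells. Melanocytes are not epithelial and arise from the neural crest. In melanoma, SNAI2 and ZEB2 are known from the differentiated state, and TWIST1 and ZEB1 from the dedifferentiated, invasive state.

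Of the 10 genes, 8 had enough reads to be tested, and only Snai1 fell in Nfkbiz KO. Its level decreased to 0.491 times that of Ctrl, while Snai2, Twist1, Zeb1, Zeb2 and Prrx1 rose by 1.21- to 1.43-fold. Thus, 5 genes were higher, 1 was lower and 2, Twist2 and Cdh2, did not pass an adjusted p of 0.05 (edgeR quasi-likelihood test on read counts, Benjamini-Hochberg adjustment over all 14419 genes tested). Among all genes tested, 36.6% passed, 18.2% higher and 18.4% lower in Nfkbiz KO. On log2(TPM + 1) values, limma called 6 of the 8 genes higher and 1 lower, but on that scale 69.4% of all called genes were higher, against 49.8% with read counts. The groups did not overlap in TPM (a level normalized for transcript length and library size) for 7 of the 8 genes, where 47.8% of all genes tested did not overlap. Of the 7, 6 were higher and 1 lower in Nfkbiz KO, against 32.9% and 14.9% of all genes tested. In bulk RNA, fewer cells expressing a gene and less of its RNA per cell cannot be told apart.

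**Figure D1:**
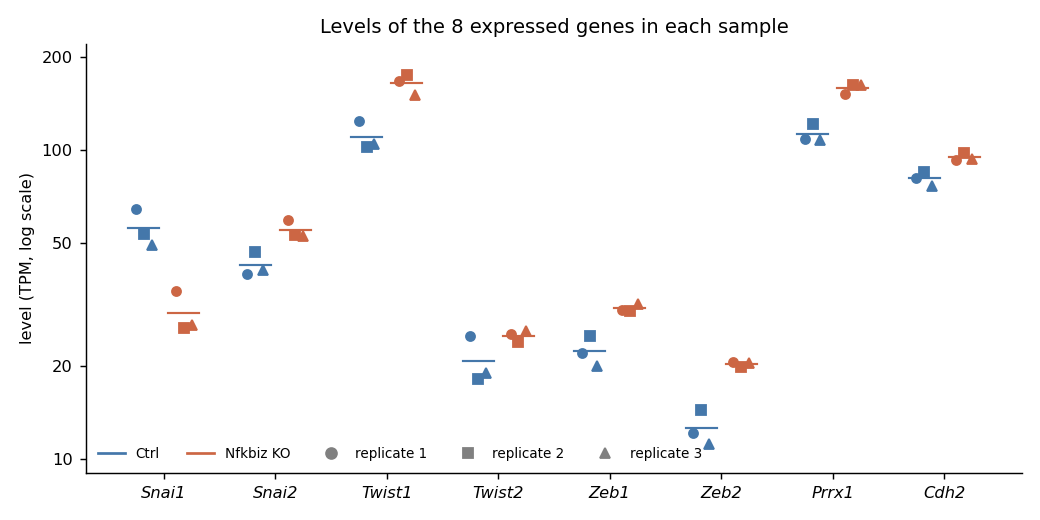
Levels in TPM on a log scale of the 8 tested genes in each of the 3 Ctrl and 3 Nfkbiz KO samples, with a symbol for each replicate number and a line at the group mean. The Snai1 points of Nfkbiz KO lie below those of Ctrl, those of Snai2, Twist1, Zeb1, Zeb2, Prrx1 and Cdh2 lie above, and those of Twist2 overlap.

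The libraries held between 32219900 and 44927203 reads counted on genes, so 0 reads allow up to 0.0668 to 0.0931 CPM (reads scaled to library size), for counting error only. Nfkbiz itself (chromosome 16, 55631738 to 55659262, GRCm39) had 69.1, 75.2 and 63.4 TPM in Ctrl and 34.8, 34.7 and 35.1 TPM in Nfkbiz KO (log2 fold change -0.98, standard error 0.056). These reads do not tell edited from unedited transcripts. Ctrl replicate 1 stood apart in structural RNAs, with 198 TPM of Rpph1 against 2.82 to 19.7 TPM in the other samples. For Snai1, Twist2, Ctnna1 and Tcf3, whose call or threshold it decided, values are also given without it. Counts over the related lists were taken with all samples. The defining markers of the melanocyte lineage were mostly absent from these melanoma cells. Of 15 such markers, 8, among them Sox10, Tyr and Mlana, were at 0 TPM in all samples, and Pax3 alone was above 1 TPM in each of them. Of 7 leukocyte, 7 keratinocyte and 6 endothelial markers, 6, 6 and 6 were below 1 TPM in all samples, among them Ptprc, Krt5, Krt14 and Pecam1, and the exceptions were Cd68 and Krt10.

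Snai1 encodes Snail, a zinc-finger repressor of E-cadherin and of its own gene, and the part of its promoter given by RefSeq is shown because Snai1 was the only one of the genes to fall. Twist1 and Zeb2 are shown beside it as genes that rose. Each run covers 250 bases before to 50 bases after a transcription start (GRCm38.p6), written 5′ to 3′ along the gene, and capitals mark a match to a searched motif. RefSeq windows were taken for 5 of the 10 genes, namely Snai1, Twist1, Twist2, Zeb2 with 4 starts, and Prrx1. The promoters of Snai2, Zeb1, Cdh1, Cdh2 and Cdh11 were not searched, so the motif results do not cover them. The windows are chr2:167537945-167538244 on the plus strand for Snai1, chr12:33957421-33957720 on the plus strand for Twist1, and chr2:45113230-45113529 on the minus strand for the shown start of Zeb2.
Snai1: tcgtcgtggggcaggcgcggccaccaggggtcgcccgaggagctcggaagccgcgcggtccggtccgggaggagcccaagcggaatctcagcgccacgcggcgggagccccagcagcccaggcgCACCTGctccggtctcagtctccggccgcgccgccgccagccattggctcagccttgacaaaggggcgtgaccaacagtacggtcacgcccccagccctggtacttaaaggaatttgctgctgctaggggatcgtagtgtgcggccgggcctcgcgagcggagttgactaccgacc
Twist1: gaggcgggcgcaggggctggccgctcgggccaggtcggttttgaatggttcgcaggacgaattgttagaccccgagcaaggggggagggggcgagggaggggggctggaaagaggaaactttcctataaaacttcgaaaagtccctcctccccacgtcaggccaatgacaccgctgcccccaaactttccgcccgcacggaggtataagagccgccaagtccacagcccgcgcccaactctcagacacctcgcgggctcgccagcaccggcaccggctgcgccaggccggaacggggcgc
Zeb2: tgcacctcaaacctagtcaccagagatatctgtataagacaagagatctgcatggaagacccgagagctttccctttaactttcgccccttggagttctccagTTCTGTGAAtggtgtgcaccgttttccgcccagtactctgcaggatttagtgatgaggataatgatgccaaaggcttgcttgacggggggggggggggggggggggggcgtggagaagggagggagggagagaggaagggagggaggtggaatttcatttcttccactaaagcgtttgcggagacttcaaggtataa

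The Snai1 window held the E-box CAGGTG, which reads CACCTG on the printed strand, at 126 to 121 bases before the start. This E-box, the kind bound by Snail and ZEB factors, was searched on both strands and was found in none of the other 7 windows taken for these genes. It is common, being present in 20.2% of all 32851 promoter windows of this length. The palindromic motif TTCNNNGAA, the core of STAT binding sites, matched in 2 windows of Zeb2, which overlap and share the same site, and in 8.3% of all windows. The NF-κB consensus, searched on both strands, had no match in the 8 windows taken for these genes and was present in 8.46% of all windows. No searched motif overlapped another in the sequences shown.

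Snai1 (chromosome 2, 167380113 to 167384734, GRCm39) had 64.3, 53.5 and 49.3 TPM in Ctrl replicates 1, 2 and 3 and 35, 26.6 and 27.2 TPM in Nfkbiz KO replicates 1, 2 and 3. All Nfkbiz KO samples were below all Ctrl samples, and replicate 1 was the highest of each group. The level fell from 55.7 ± 7.71 to 29.6 ± 4.7 TPM (SD, n = 3 each), and the log2 fold change from read counts was -1.03 (standard error 0.12, adjusted p = 2.1e-05 from edgeR). Snai1 was the only one of the 10 genes to pass the thresholds of the study, namely more than 2-fold, a difference over 4, here taken in TPM, and an adjusted p of at most 0.05, which 1.79% of all genes tested passed. It lay at the edge of the fold threshold. Without Ctrl replicate 1 the log2 fold change was -0.91 (adjusted p = 0.000137, edgeR), and without Nfkbiz KO replicates 2 or 3 it was -0.96 or -0.97, so that the fold threshold was then missed while the adjusted p was kept.

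Snai2 encodes Slug, the paralog of Snail, which in melanocytes is needed for their migration from the neural crest. It lies on chromosome 16 from 14523425 to 14527252 (GRCm39) and had 39.7, 46.5 and 40.9 TPM in Ctrl and 59.2, 53.1 and 52.5 TPM in Nfkbiz KO. The groups did not overlap, and the direction was opposite to that of Snai1. By edgeR the log2 difference was 0.27 ± 0.067 (standard error, adjusted p = 0.007), and the adjusted p rose to 0.0499 without Nfkbiz KO replicate 1. The ratio of Snai1 to Snai2 within each sample was 1.62, 1.15 and 1.21 in Ctrl and 0.591, 0.5 and 0.517 in Nfkbiz KO. Snai1 was thus above Snai2 in 3 of 3 Ctrl samples and below it in 3 of 3 Nfkbiz KO samples, a log2 difference of -1.29 (p = 0.1 in an exact, two-sided permutation test, which cannot go lower with 3 samples against 3, and 0.1 after adjustment over 3 ratios).

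Twist1, a helix-loop-helix factor of cranial mesenchyme and neural crest, shared the top of the order with Prrx1. On chromosome 12 from 34007645 to 34009828 (GRCm39), it had 124, 102 and 105 TPM in Ctrl and 167, 174 and 150.4 TPM in Nfkbiz KO. The lowest Nfkbiz KO value lay above the highest Ctrl value. By edgeR the log2 difference was 0.48 ± 0.084 (standard error, adjusted p = 0.00083). Twist2, a close paralog that can repress in the same way, lies on chromosome 1 from 91729176 to 91796542 (GRCm39) and had 25.0, 18.1 and 19.0 TPM in Ctrl and 25.3, 23.8 and 26.0 TPM in Nfkbiz KO. Here the groups overlapped, since Ctrl replicate 1 reached the level of Nfkbiz KO. The log2 fold change of Twist2 was 0.18 (95% confidence interval -0.04 to 0.40, adjusted p = 0.189 from edgeR), but 0.32 (adjusted p = 0.0122, edgeR) without Ctrl replicate 1 and 0.10 (adjusted p = 0.455, edgeR) without Ctrl replicate 2, these being the highest and the lowest of the values with 1 sample left out. Only 55.2% of its reads mapped uniquely, against at least 99.8% for the other 7 tested genes, and with unique reads alone the value was 0.19 (adjusted p = 0.161, edgeR). The RNA Gm29100, which overlaps Twist2, had 46 to 84 reads per sample and Twist2 735 to 1174.

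The ratio of Twist1 to Twist2 was 4.95, 5.65 and 5.53 in Ctrl and 6.61, 7.32 and 5.79 in Nfkbiz KO. It was higher in every Nfkbiz KO sample, by 0.29 on the log2 scale (two-sided exact permutation test, p = 0.1, adjusted 0.1), although Nfkbiz KO replicate 3 was close to the highest Ctrl sample.

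**Figure D2:**
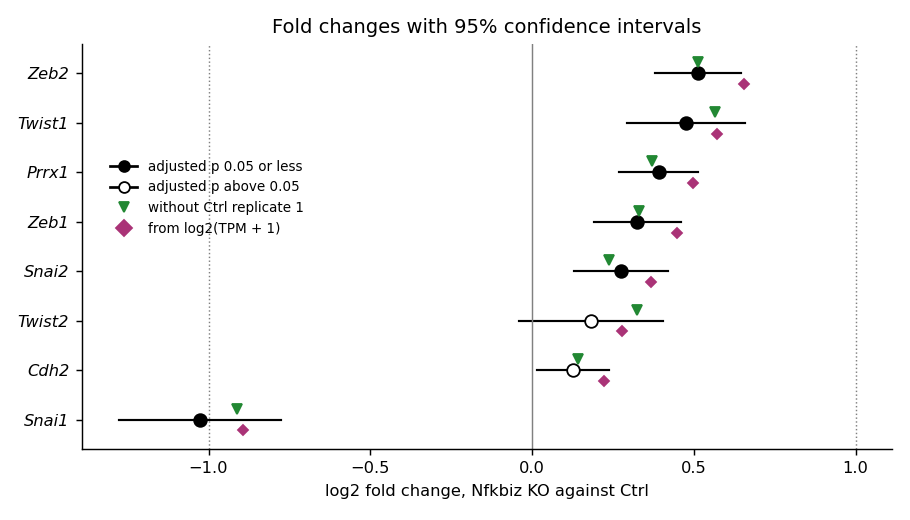
Log2 fold changes of the 8 tested genes in Nfkbiz KO against Ctrl from read counts, with 95% confidence intervals and dotted lines at a fold change of 2, and with the values without Ctrl replicate 1 and from log2(TPM + 1). From read counts of all samples Snai1 lies at -1.03, Zeb2 at 0.51 and Twist1 at 0.48, and the interval of Twist2 spans 0, while without Ctrl replicate 1 Twist1 lies at 0.57 and Zeb2 at 0.51.

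Both ZEB genes rose. ZEB factors carry paired zinc-finger clusters and a homeodomain, and bind E-boxes of Cdh1 and other epithelial genes. Zeb1 (chromosome 18, 5591851 to 5775467, GRCm39) had 22, 25.0 and 19.9 TPM in Ctrl and 30.3, 30.2 and 31.6 TPM in Nfkbiz KO. Zeb2 (chromosome 2, 44873644 to 45007464, GRCm39), which in the melanocyte lineage supports differentiation, had 12.2, 14.4 and 11.2 TPM in Ctrl and 20.6, 19.9 and 20.3 TPM in Nfkbiz KO. Neither gene overlapped between the groups, and the Nfkbiz KO samples lay close together. The log2 fold changes were 0.33 for Zeb1 (standard error 0.062, adjusted p = 0.0015) and 0.51 for Zeb2 (standard error 0.062, adjusted p = 3.7e-05), both from edgeR. The reads of Zeb2 may include some of the antisense RNA Zeb2os, since counting ignored the strand. Zeb2os had 19 to 52 reads per sample and Zeb2 2945 to 5571, and the antisense part of the Zeb2 reads was not tested.

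Zeb1 was more abundant than Zeb2 in all 6 samples, but less so in Nfkbiz KO. The ratio was 1.81, 1.74 and 1.78 in Ctrl and 1.47, 1.52 and 1.55 in Nfkbiz KO, without overlap. This was a log2 difference of -0.23 (two-sided exact permutation test, p = 0.1, adjusted 0.1 over 3 ratios).

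**Figure D3:**
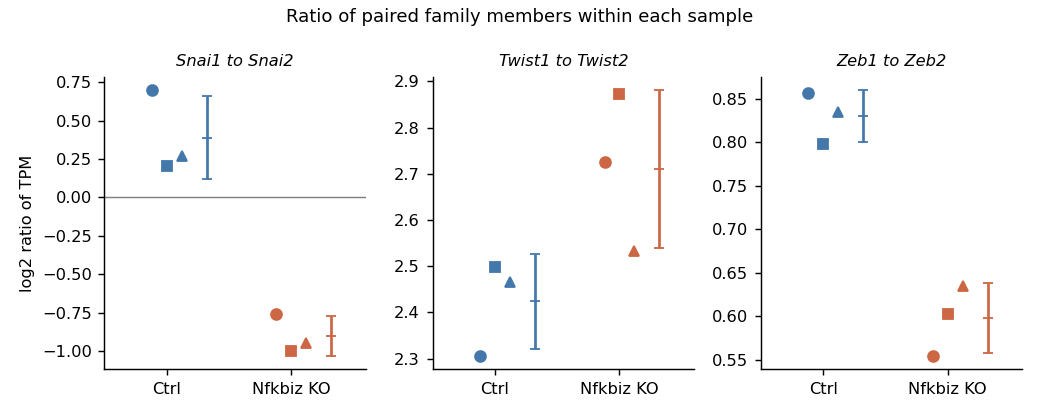
Log2 ratio of the TPM of paired family members within each sample, with the mean and SD (n = 3) beside the points of each group and a separate vertical scale in each panel. The Snai1 to Snai2 ratio crosses 0, from 0.39 in Ctrl to -0.90 in Nfkbiz KO on average, while the other ratios shift by less than 0.3 without changing which gene is more abundant.

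Prrx1, a homeobox factor of limb and skin mesenchyme, had the most reads of the 10 genes. It lies on chromosome 1 from 163041844 to 163142033 (GRCm39) and had 108, 121 and 108 TPM in Ctrl and 152, 162 and 162 TPM in Nfkbiz KO. Every Nfkbiz KO sample was above every Ctrl sample, and by edgeR the log2 difference was 0.39 ± 0.057 (standard error, adjusted p = 0.00017). Its paralog Prrx2, which is not one of the 10 genes and was singled out after its value was seen, fell from 46.8 ± 5.57 to 30.6 ± 4.14 TPM (SD, n = 3 each) (log2 fold change -0.71, adjusted p = 0.00018, edgeR).

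Among the 7 factor genes, Twist1 and Prrx1 together held between 58.6% and 68.7% of the summed TPM of a sample. The share of Snai1 was 14% to 16.3% in Ctrl and 5.42% to 7.15% in Nfkbiz KO. The sum itself was 353 to 395 TPM in Ctrl and 470.1 to 490.1 TPM in Nfkbiz KO, so that Snai1 fell while the others together grew. In Ctrl the order of the levels was Prrx1, Twist1, Cdh2, Snai1, Snai2, Zeb1, Twist2 and Zeb2, in which Prrx1 overlapped with Twist1 and Zeb1 with Twist2. In Nfkbiz KO it was Twist1, Prrx1, Cdh2, Snai2, Zeb1, Snai1, Twist2 and Zeb2, in which Twist1 overlapped with Prrx1 and Zeb1 with Snai1. Snai1 moved from rank 4 to rank 6.

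**Figure D4:**
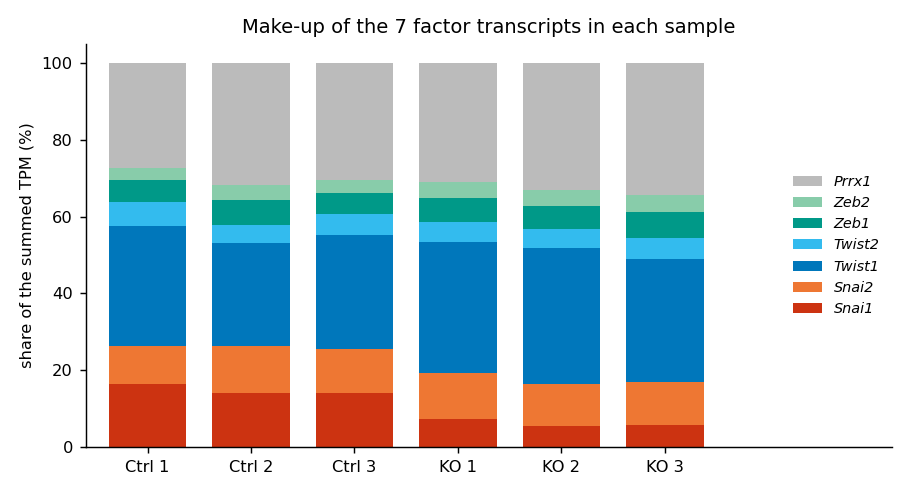
Share of each of the 7 factor genes in their summed TPM, in percent, as stacked bars for the 3 Ctrl and 3 Nfkbiz KO samples. The Snai1 segment is 14% to 16.3% in the Ctrl bars and at most 7.15% in each Nfkbiz KO bar, and Twist1 and Prrx1 are the largest segments in all 6 bars.

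The cadherins stood apart from each other in level. Cdh2, the gene of N-cadherin, which mediates adhesion of mesenchymal and neural cells, lies on chromosome 18 from 16700793 to 16942381 (GRCm39) and had 81.2, 85.0 and 76.2 TPM in Ctrl and 92.7, 97.3 and 93.4 TPM in Nfkbiz KO. The groups did not overlap in TPM. From read counts the log2 fold change was 0.13 (95% confidence interval 0.02 to 0.24), with an adjusted p of 0.0698 from edgeR, which missed the threshold. It passed with limma on log2(TPM + 1), at 0.22 (adjusted p = 0.0203), with DESeq2, at 0.13 (adjusted p = 0.0384), and with edgeR without Ctrl replicate 3, at 0.11 (adjusted p = 0.0462).

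Cdh1, the gene of E-cadherin (chromosome 8, 107329941 to 107396880, GRCm39), had 4, 3 and 4 reads in Ctrl and 2, 4 and 6 reads in Nfkbiz KO. Cdh11, the gene of the mesenchymal cadherin-11 (chromosome 8, 103358726 to 103512687, GRCm39), was counted 3, 8 and 9 times in Ctrl and 4, 5 and 16 times in Nfkbiz KO. Both genes were thus near the limit of 3 reads and at most at 0.142 TPM, and neither was tested after the filter on low counts. Without this filter the adjusted p was 0.989 for Cdh1 and 0.837 for Cdh11 (edgeR), so no difference was detectable at this depth. Cdh2 was therefore the only one of the 3 cadherins present at a substantial level in either group.

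Other classical cadherins, which share the catenin-binding tail, were listed as 15 genes. Of these, 12 were too low to be tested, 1 was higher, 1 was lower and 1 did not pass the test in Nfkbiz KO. Among all genes tested, 18.2% were higher and 18.4% lower. The median on the log2 scale was -0.14 against -0.02 over all genes tested. The most abundant was Cdh6, a type II cadherin of kidney and neural crest, at 11.5 ± 1.59 TPM in Ctrl against 11.1 ± 0.738 TPM in Nfkbiz KO (SD over 3 samples) and a log2 fold change of -0.14 (adjusted p = 0.173, edgeR), with values from -0.21 (adjusted p = 0.0215, edgeR, without Ctrl replicate 3) to -0.07 when 1 sample was left out, and -0.04 (adjusted p = 0.837, limma) on log2(TPM + 1). Cdh24 fell from 5.16 ± 0.282 to 3.5 ± 0.5 TPM (log2 fold change -0.69, adjusted p = 0.0012, edgeR). Cdh5, the gene of the endothelial VE-cadherin, rose from 0.548 ± 0.139 to 1.54 ± 0.313 TPM (log2 fold change 1.34, adjusted p = 0.0023, edgeR), on 18 to 83 reads per sample. The endothelial markers Kdr, Tie1 and Emcn were at or near 0 TPM in both groups, and the 6 endothelial markers together summed to at most 0.162 TPM in Ctrl samples and at most 0.196 TPM in those of Nfkbiz KO.

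Of 16 catenins and cadherin partners, a list that also holds nectins, 13 were tested. In Nfkbiz KO 4 were higher, 5 lower and 4 not called, where 18.2% of all genes tested were higher and 18.4% lower. The median log2 fold change was -0.11 against -0.02 over all genes tested, and turned to 0.01 on log2(TPM + 1), where that of all genes was 0.06. The core catenins were abundant, with small differences between the groups. Ctnnb1 (β-catenin) had 395 ± 31.1 TPM in Ctrl and 389 ± 7.33 in Nfkbiz KO and a log2 fold change of -0.11 (adjusted p = 0.126, edgeR), with -0.15 (adjusted p = 0.0063, edgeR) without Ctrl replicate 3 but -0.02 (adjusted p = 0.849, limma) on log2(TPM + 1). Ctnnd1 (p120-catenin) had a log2 fold change of -0.02 (adjusted p = 0.829, edgeR), with 27.2% of its reads mapped uniquely. Ctnna1 (α-catenin) was just past the threshold at -0.14 (adjusted p = 0.0438, edgeR), and missed it under 11 of 15 other settings. Without Ctrl replicate 1 it was at -0.14 (adjusted p = 0.0964, edgeR). The less abundant armadillo genes Jup (plakoglobin) and Arvcf fell from 3.5 ± 0.417 to 1.59 ± 0.107 TPM and from 1.5 ± 0.175 to 0.694 ± 0.104 TPM (adjusted p = 1.8e-05 and 0.00023, edgeR). Nectin2, an immunoglobulin-type adhesion receptor of adherens junctions, had 54.9, 60.2 and 55.5 TPM in Ctrl and 23.7, 25.3 and 24.5 in Nfkbiz KO (log2 fold change -1.31, adjusted p = 5.9e-09, edgeR). Nectin3, which pairs with it across cells and was singled out after its value was seen, rose from 12.5 ± 0.821 to 22.6 ± 0.997 TPM (log2 fold change 0.73, adjusted p = 6.1e-07, edgeR).

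Of 21 other transcription factors linked to EMT, 16 were tested. There were 6 higher, 6 lower and 4 not called, where 18.2% of all genes tested were higher and 18.4% lower. The median log2 fold change was 0.19 against -0.02 over all genes tested. Sox4, a factor downstream of TGF-β, was the most abundant and fell from 231 ± 6.58 to 178 ± 10.4 TPM (log2 fold change -0.47, adjusted p = 4.1e-05, edgeR). Tcf3, whose product E2A is a dimerization partner of Twist factors, fell by 0.19 on the log2 scale (adjusted p = 0.0316, edgeR), but was not called on log2(TPM + 1), at -0.09 (adjusted p = 0.295, limma), nor without Ctrl replicate 1, at -0.15 (adjusted p = 0.123, edgeR). Id1, an inhibitor that binds helix-loop-helix proteins such as E2A and keeps them from DNA, had 110, 96.1 and 106 TPM in Ctrl and 51.6, 48.2 and 47.6 TPM in Nfkbiz KO (log2 fold change -1.18, adjusted p = 3.0e-07, edgeR). Id3, of the same family and singled out after its value was seen, fell from 92.8 ± 9.55 to 52.8 ± 3.96 TPM (adjusted p = 8.8e-06, edgeR). Foxq1, a forkhead factor, fell by 1.71 on the log2 scale (adjusted p = 0.00066, edgeR) from a low level of 0.935 ± 0.0824 to 0.303 ± 0.0792 TPM, with 49.5% of its reads mapped uniquely. Id1 and Foxq1 were the only genes of this list past a fold change of 2, which 5.92% of all genes tested passed with an adjusted p of at most 0.05.

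The epithelial-state genes were close to silent, as was Cdh1. Of 23 such genes, 21, among them Epcam, Esrp1, Ovol2, Krt8 and Cldn4, were below 1 TPM in all samples, and 2 were tested. Ppl, the gene of the desmosome-associated periplakin, fell from 2.16 ± 0.115 to 1.43 ± 0.228 TPM (log2 fold change -0.69, adjusted p = 0.0027, edgeR). Pkp3 had a log2 fold change of 0.42 (adjusted p = 0.29, edgeR), which moved between 0.20 and 0.63, the latter without Ctrl replicate 1, when 1 sample was left out. Ovol1, a repressor of Zeb1 in epithelia, had at most 0.212 TPM.

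In contrast, 19 of 22 mesenchymal-state genes were above 1 TPM in every sample. Of 21 tested, 4 were higher, 8 lower and 9 not called, where 18.2% of all genes tested were higher and 18.4% lower. The median difference was -0.03 on the log2 scale, against -0.02 over all genes tested. With log2(TPM + 1), limma called 4 higher and 4 lower, so this split moved with the scale. Vim, the gene of the intermediate filament vimentin, rose from 2574 ± 92.9 to 3695 ± 38.0 TPM (log2 fold change 0.42, adjusted p = 0.00044, edgeR). S100a4, a calcium-binding protein of motile cells, fell by 0.31 on the log2 scale (adjusted p = 0.0063, edgeR), but was not called on log2(TPM + 1), at -0.21 (adjusted p = 0.0547, limma), and Sparc was at 0.01 (adjusted p = 0.929, edgeR). The steepest falls were those of lysyl oxidases, which cross-link collagen. Lox had 27.8, 31.6 and 25.9 TPM in Ctrl and 5.7, 5.57 and 5.82 TPM in Nfkbiz KO (log2 fold change -2.40, adjusted p = 3.2e-10, edgeR). Loxl2, whose product is known to stabilize the Snail protein, fell from 36.1 ± 2.46 to 16.3 ± 0.506 TPM (log2 fold change -1.18, adjusted p = 1.4e-08, edgeR). Fibroblast markers were also expressed by these cells. Of 7, 5 were tested and 4 were lower in Nfkbiz KO, where 18.4% of all genes tested were lower. Pdgfra, the other tested marker, was at 0.002 on the log2 scale (adjusted p = 0.985, edgeR). The summed level of the markers was 966 to 1071 TPM in Ctrl against 799 to 843 TPM in Nfkbiz KO. Their part in the result was not tested, and Lum and Dpt were below 1 TPM in all samples.

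**Figure D5:**
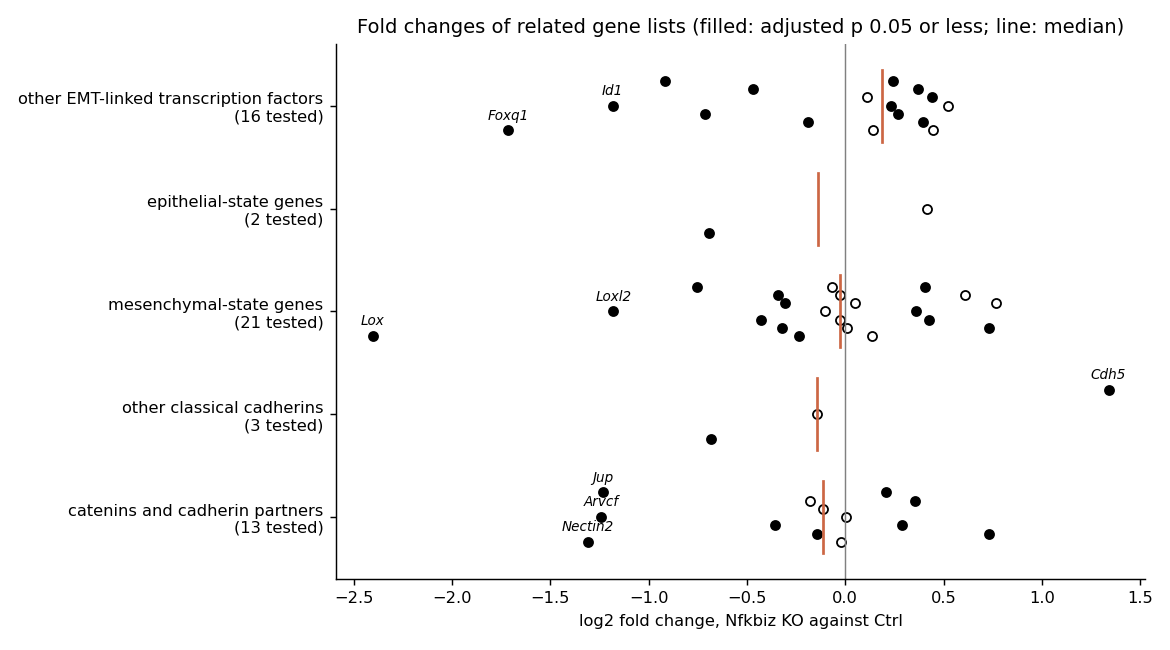
Log2 fold changes in Nfkbiz KO against Ctrl of the tested genes in 5 related lists, with filled points at an adjusted p of 0.05 or less, a colored line at the list median and names for genes past a fold change of 2. Lox at -2.40, Foxq1, Nectin2, Arvcf, Jup, Id1 and Loxl2 lie below -1, and Cdh5 at 1.34 lies above 1.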

How the data were processed

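RNA of 3 Ctrl and 3 Nfkbiz KO samples of D4M-3A cells was sequenced as paired reads. The authors mapped them with CLC Genomics Workbench at default settings, counting each pair as 1 and ignoring the strand. The methods name GRCm39, whereas the submitters' processing notes name GRCm38, and the tables hold no coordinates. The deposited total and unique gene reads are raw counts per gene. The deposited TPM and RPKM values, written with a decimal comma, were computed by the authors from exons, and 2105 to 2271 genes with reads in a sample have no RPKM.

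Total gene reads were tested with edgeR 4.0.16 in R 4.3.3 (TMM, filterByExpr at min.count 10 and min.total.count 15, quasi-likelihood test, Benjamini-Hochberg adjustment over 14419 genes). Standard errors are the log2 fold change divided by the square root of F. Ratios of TPM were computed where both genes had 10 reads in every sample, which left out Cdh2 to Cdh1 and Cdh2 to Cdh11, and compared by exact permutation in scipy 1.17.1. Alternatives were DESeq2 1.42.0, limma 3.58.1 on log2(TPM + 1) and log2(TPM + 0.1), other tests, normalizations, filters and reads, a block for the replicate number, and each sample left out. The procedure was also run on simulated counts with the same dispersion for all genes, which do not hold the gene-wise spread of these data. Genes are placed by symbol in a GENCODE annotation of GRCm39, and promoters are from RefSeq. Named genes are the 10 genes, Nfkbiz and, in each of 5 related lists, the 3 with the highest mean TPM and those called past a fold change of 2. Genes named only to show a level are markers of the lists. The genes and lists were chosen with earlier results of these data known.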

Additional observations from a re-analysis of the deposited data

How the results depend on the processing

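Over 15 alternatives each, the log2 fold changes of Snai1 (-1.16 to -0.89), Snai2 (0.23 to 0.38), Twist1 (0.40 to 0.58), Zeb1 (0.27 to 0.46), Zeb2 (0.46 to 0.69) and Prrx1 (0.37 to 0.50) kept their direction and an adjusted p of 0.05 or less, and those of Nfkbiz stayed between -1.02 and -0.93. Between 6 and 7 of the 10 genes were called, 5 to 6 higher and 1 lower. The number of genes past the thresholds of the study, 1 with all samples, was 0 with limma on log2(TPM + 1), where Snai1 was at -0.89, and 0 on log2(TPM + 0.1), where it was at -0.91. With 1 sample left out it was 0 to 1. It was 0 without Ctrl replicate 1, Nfkbiz KO replicate 2 or Nfkbiz KO replicate 3, because the fold change of Snai1 was then under 2. The number of all genes called lay between 3798 and 5638.

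The labels share replicate numbers between the groups, but the pairing was not borne out, since same-numbered samples deviated from their group means with a correlation across genes of only 0.0367, -0.0233 and 0.0256. With the replicate number as a block, 6 of the 10 genes were called and no call among them changed, Snai1 being at -1.03, Twist2 at 0.19 (adjusted p = 0.0863, edgeR) and Cdh2 at 0.13 (adjusted p = 0.112, edgeR). The ratios kept their direction under all 8 alternatives tried, with log2 differences from -1.39 to -1.14 for Snai1 to Snai2, 0.21 to 0.38 for Twist1 to Twist2 and -0.25 to -0.19 for Zeb1 to Zeb2. Most of these alternatives could not reverse a direction. RPKM gives the same differences as TPM, and groups without overlap keep their order when 1 sample is left out. With 3 samples a group, no permutation p can fall below 0.1. Depth limits Cdh1 and Cdh11, at 2 to 16 reads per sample.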

Other observations

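The hairpins of the miR-200 family, microRNAs known to repress Zeb1 and Zeb2, were listed as Mir200a, Mir200b, Mir200c, Mir141 and Mir429, and all 5 had 0 reads in all 6 samples. These rows were looked up after the values of the other genes were seen, and RNA libraries of this kind are not made to hold short hairpins or mature microRNAs.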
